A study of Mus musculus with 6 samples.

Results

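The acute-phase genes Saa3, Lcn2, Serpina3n, Lrg1, Hp, Cp and Socs3 were counted in single non-neuronal cells of the mouse cortex after stroke. These 7 of the 32285 genes in the matrix were listed by symbol, with their counts in the same cells already seen, so that every level given here is a description and nothing about the choice is tested. Acute-phase proteins are secreted proteins whose blood level changes within hours of infection or tissue injury. The liver is their main source, where cytokines of the interleukin-6 (IL-6) family act through STAT3, and interleukin-1 and TNF through NF-κB and C/EBP factors. Socs3 is itself a STAT3 target and encodes the inhibitor that shuts the same receptors off, so it is not a secreted product. What set its level in these cells was not tested. Many cells outside the liver can also make acute-phase proteins, and in the injured brain Serpina3n and Lcn2 are commonly used as markers of reactive glia.

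All groups came from male RGS5::GFP heterozygous mice aged 8 to 12 weeks, whose middle cerebral artery had been occluded permanently. In the reporter allele GFP is driven from the locus of Rgs5, a pericyte and smooth muscle gene, and every group carried it. The 6 groups were the ipsilateral cortex and the corresponding contralateral cortex at 1, 12 and 24 h, with 1 library per group. The contralateral side is the uninjured side of an animal with a stroke rather than of an unoperated one. By the study's methods, fewer mice were used for single-cell sequencing than there were libraries, so the libraries are not independent animals. The matrix tells its 6 libraries apart by a number, and no label ties a number to a group. No value is therefore assigned a hemisphere or timepoint, and each library is given under its number. The labels also name 2 versions of the library kit for different timepoints, whereas the study's methods name 1 version for all libraries. By the same methods, the 1 and 12 h libraries were sequenced on a NovaSeq and the 24 h libraries on a HiSeq instrument. The 24 h timepoint cannot be told apart from the sequencer. Timepoints that differ in kit cannot be told apart from the kit where the labels hold.

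Cells numbered 17357, with a median of 5338 UMIs (unique molecular identifiers, each counting 1 captured RNA molecule) per cell and library medians between 5053 and 5660.5. Libraries 1 to 6 held 1221, 1405, 5873, 4216, 1906 and 2736 cells, from totals between 12427757 and 40793772 UMIs over all barcodes. The same barcode sequence occurred in more than 1 library for 26 barcodes, or 52 cells. Clustering without the 7 genes gave 28 clusters, of which 26 were assigned to 14 cell classes from marker genes. The authors' own cell annotation was not used, so the ending -like marks each name as a new assignment, which may differ from the study's. The markers of 12 classes were each highest in their own class, and 4 of 6 perivascular macrophage markers and 5 of 6 monocyte-derived macrophage markers were. The 257 cells assigned to perivascular macrophages, cluster 15, had all 6 of those markers raised but none among their 10 leading genes, which were class II genes such as H2-Eb1 and myeloid genes such as Lyz2 and S100a4, so they are called cluster 15 here. Hemoglobin genes led 1 microglia-like cluster. Clusters 17 and 22, with 270 cells, stayed unnamed.

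Levels are given in CPM, which relates the UMIs of a gene in the cells of a class to the total of UMIs in these cells, with exact 95% Poisson intervals, and shares of cells with exact 95% binomial (Clopper-Pearson) intervals. The intervals cover counting error only. Levels are compared within a gene and not between genes. Of the 7 genes, all passed the filter of at least 10 CPM in a class of at least 50 cells, and 5 were led by 1 class, meaning at least 2 times the next class with intervals apart. The same call was made for 27.9% of the 13049 genes that passed, and because the genes were chosen on these values nothing is read from the difference. Lcn2, Lrg1 and Hp were led by neutrophil-like cells, Serpina3n by oligodendrocyte-like cells and Cp by pericyte-like cells, whereas Saa3 and Socs3 were each shared by a pair of classes of nearly equal level. Hp did not bear out the description of the genes as acute-phase genes of the brain itself, since 48.7% of its 2571 UMIs lay in neutrophil-like and 47.2% in monocyte-derived macrophage-like cells, both of the blood lineage. For Lcn2 the largest share of 7677 UMIs, 50.2%, lay in endothelial-like cells, with 36.1% in neutrophil-like cells.

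**Figure D1:**
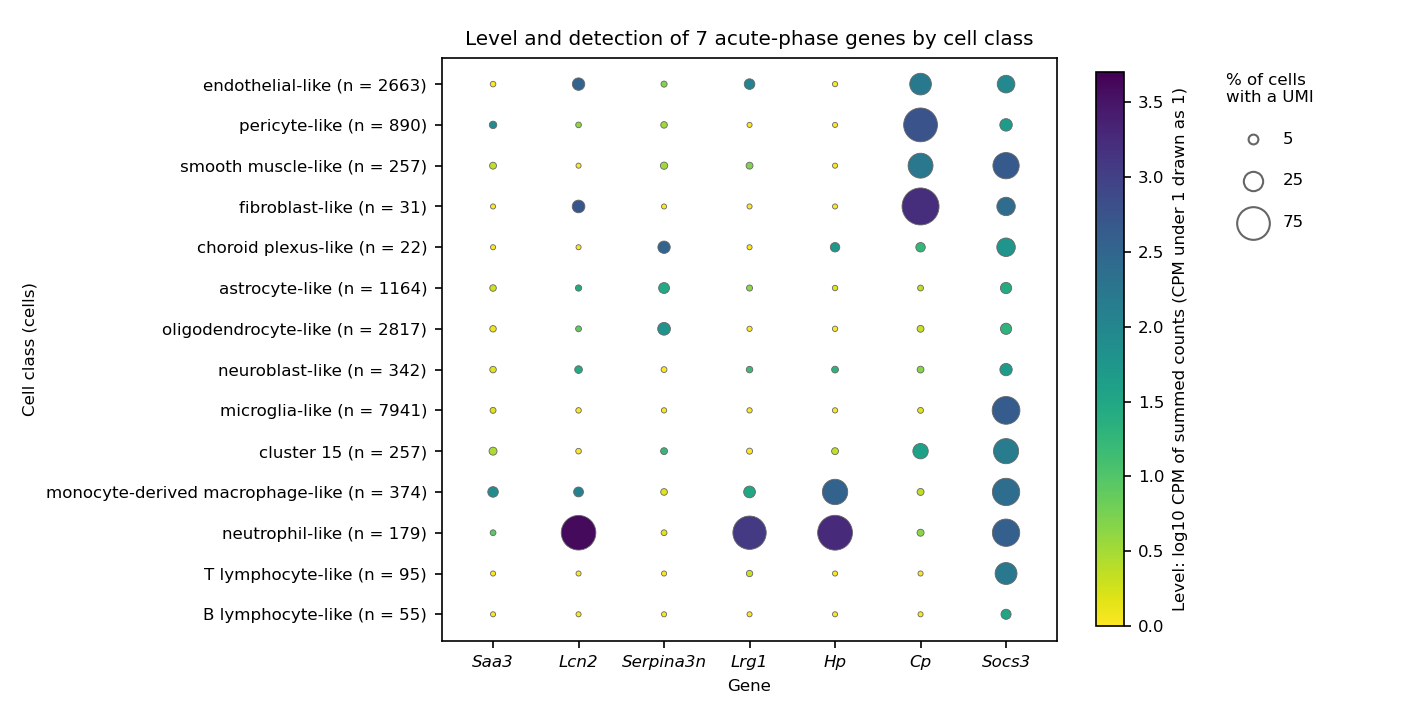
Dot plot of the 7 genes (columns) in the 14 cell classes (rows, with the number of cells and cluster 15 under its number), pooled over the 6 libraries, where colour gives the log10 of the summed CPM and dot area the percent of cells with a UMI. Lcn2 reached 4022 CPM in neutrophil-like and 330 CPM in endothelial-like cells, and Cp 561 CPM in pericyte-like cells.

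Lcn2 encodes lipocalin-2, a secreted protein of neutrophil granules that binds bacterial siderophores and so keeps iron from microbes. It lies on chromosome 2 from 32384633 to 32388252 on the minus strand (GRCm38, GENCODE vM21) and has up to 7 exons. In the 179 neutrophil-like cells it stood at 4022 CPM (3873 to 4174) and a UMI was found in 84.4% of the cells. Endothelial-like cells followed with 330 CPM (320 to 341) in 2663 cells, so that the ratio of neutrophil-like to endothelial-like cells was 12.2 (11.6 to 12.8). The fibroblast-like value of 516 CPM came from 31 cells, with 90 of 102 UMIs in 1 cell, and was 64.1 CPM without it. Likewise the monocyte-derived macrophage-like value of 122 CPM fell to 21.4 CPM and the astrocyte-like value of 28.1 CPM to 4.03 CPM once the richest cell was left out. Smooth muscle-like cells had no Lcn2 UMI.

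Within endothelial-like cells Lcn2 was uneven between libraries. In libraries 1 to 6 its level was 13.7, 37.7, 522, 721, 36.5 and 294 CPM, over 170, 193, 688, 447, 535 and 630 cells. The highest library, 4, was 52.5 times (26.6 to 122) the lowest, 1, and libraries 3, 4 and 6 lay above the other three without overlap. With library 1 left out, the ratio of the highest to the lowest was 19.8. The share of endothelial-like cells with a UMI of Lcn2 was 2.94, 2.07, 7.70, 18.6, 6.17 and 11.0% in the same order. After thinning of every cell to 1000 UMIs it was 5.71% over all libraries, against 9.28% unthinned. Microglia-like cells were taken as the background class, and that they lack the gene was not tested. They had 0.0252% thinned and 0.315% unthinned, at a median of 5120 UMIs per cell compared with 4001 UMIs in endothelial-like cells. Their Lcn2 was at or below 1.07 CPM in every library, while barcodes holding only 1 to 50 UMIs, a measure of free RNA, had 2.74, 7.70, 49.2, 167, 7.15 and 59.8 CPM.

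Few endothelial-like cells carried most of these molecules. Of the 3854 Lcn2 UMIs, 50% lay in 11 cells, and 63 cells with at least 10 UMIs held 89.0%. The richest cells of libraries 3, 4 and 6 held 316, 164 and 254 UMIs. Among the 3 endothelial-like clusters, cluster 9 (546 cells, led by Ctla2a and Tmem252) had 1268 CPM (1226 to 1310). The level was 43.8 CPM in cluster 2 (1844 cells) and 9.45 CPM in cluster 14 (273 cells). Cluster 9 held 2, 7, 22, 178, 10 and 327 cells of libraries 1 to 6, so most of its cells came from libraries 4 and 6. Lcn2 in cluster 9 was 391, 336, 11262, 1653, 511 and 482 CPM in libraries 1 to 6, and in cluster 2 it was 8.60, 22.5, 66.1, 94.6, 24.6 and 13.4 CPM. In each of the 6 libraries the level in cluster 9 was above that in cluster 2, though cluster 9 had 2 cells in library 1 and 7 in library 2.

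Lrg1 encodes leucine-rich α2-glycoprotein 1, a secreted protein that binds the TGF-β co-receptor endoglin and promotes vessel growth. The gene has 2 exons on chromosome 17 from 56119678 to 56122001 (minus strand). Its order of classes began as that of Lcn2 did, with 1179 CPM (1099 to 1262) in neutrophil-like and 118 CPM (112 to 125) in endothelial-like cells, a ratio of 9.97 (9.13 to 10.9), or 16.2 without library 6. A UMI was found in 78.2% of neutrophil-like cells and 6.20% of endothelial-like cells, or 59.2% and 3.49% after thinning, and in 0.164% of microglia-like cells, or 0.0126% after thinning. The 890 pericyte-like cells held no Lrg1 UMI, where 3 counts would be 0.842 CPM and the exact upper limit was 1.04 CPM. In endothelial-like cells of libraries 1 to 6, Lrg1 was 5.15, 6.29, 41.4, 137, 92.3 and 251 CPM. Library 6 was the highest, at 48.8 times (16.6 to 237) library 1, and libraries 1 and 2 were the lowest. The ratio was 26.6 without library 6 and 11.9 after thinning. Cluster 9 had 453 CPM (428 to 479) and cluster 2 had 14.7 CPM.

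Lrg1 was found more often in endothelial-like cells with Lcn2 than in those without. With every cell thinned to 1000 UMIs, Lrg1 was detected in 46 of 152 cells with Lcn2, or 30.3% (23.1 to 38.2%), and in 1.87% (1.38 to 2.48%) of the 2511 cells without it. The difference was present within libraries, at 31.4 against 0.459% in library 3, 22 against 0.773% in library 4 and 45.0 against 5.25% in library 6. Before thinning, cells with Lcn2 were somewhat deeper than those without, with medians of 4994 and 3897 UMIs. Cp was also more frequent in cells with Lcn2 (23.0 against 10.5%), and so it was within libraries 3, 4 and 6. Socs3 was found in 14.5 against 6.17% over all libraries, at 18.6 against 9.54% in library 4 and 17.5 against 8.64% in library 6, but at 2.86 against 3.98% in library 3, where 1 of 35 cells with Lcn2 had it. After thinning, no cell of either kind had a UMI of Saa3. The 6 neutrophil markers, which include S100a8 and S100a9, summed to 8.58, 6.29, 8.69, 29.4, 5.11 and 43.2 CPM in endothelial-like cells of libraries 1 to 6, with 1 of them at 0, against 188087 CPM in neutrophil-like cells. The markers were highest in libraries 6 and 4 and Lcn2 in libraries 4 and 3, and the part of neutrophil RNA in these levels was not tested.

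**Figure D2:**
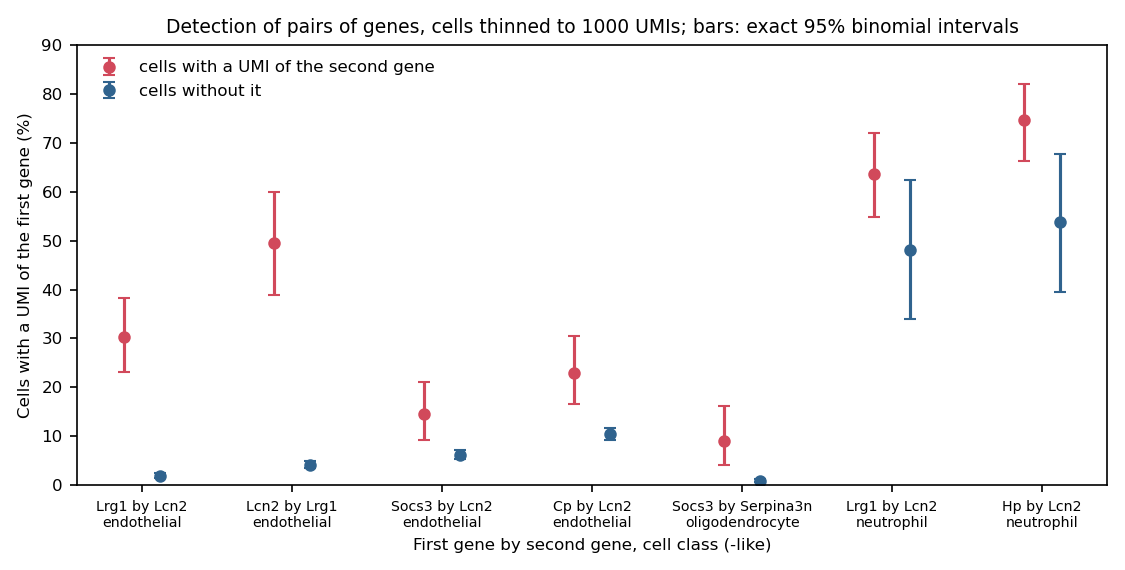
Percent of cells with a UMI of the gene named first, in cells with (red) and without (blue) a UMI of the gene named after it, by cell class, with cells thinned to 1000 UMIs and exact 95% binomial intervals. Lrg1 was found in 30.3% of endothelial-like cells with Lcn2 and 1.87% of those without.

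The stretches before the start sites of Lcn2 and Lrg1 are shown because both genes were found together in endothelial-like cells, and those of Saa3 and Socs3 because they held most matches of the C/EBP letters and the only match of the STAT letters. RefSeq promoters (GRCm38.p6, 250 bases before to 50 after the start) were given for 6 of the 7 genes, with 2 entries for Cp and without Hp. Each was searched on both strands for TTCNNNGAA (STAT), TTNNGNAA (C/EBP) and for GGGA and TTCC 2 bases apart (NF-κB), which occur in 8.30, 40.7 and 1.47% of all 32851 promoters of this length. The C/EBP letters were found in 4 of the 6 genes (4 matches in Saa3, 2 in Serpina3n, 1 in Lcn2 and 1 in each Cp entry), the STAT letters in Socs3, and the NF-κB letters in none. No match overlapped one of another motif, and a match is a description of letters and not a binding site. Printed 5′ to 3′ are the bases from 250 to 61 before the RefSeq start, with matches in capitals. In GENCODE vM21 these bases lie outside the gene for Saa3 and Lrg1, and inside a longer form of the gene for Lcn2 (139 of 190 bases coding in that form) and Socs3 (25 bases in an exon).
Lcn2 promoter, chr2:32387800-32387989, strand -: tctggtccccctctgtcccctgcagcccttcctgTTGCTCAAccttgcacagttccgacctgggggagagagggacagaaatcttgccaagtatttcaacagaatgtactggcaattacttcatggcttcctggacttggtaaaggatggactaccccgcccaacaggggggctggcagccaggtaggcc
Lrg1 promoter, chr17:56122007-56122196, strand -: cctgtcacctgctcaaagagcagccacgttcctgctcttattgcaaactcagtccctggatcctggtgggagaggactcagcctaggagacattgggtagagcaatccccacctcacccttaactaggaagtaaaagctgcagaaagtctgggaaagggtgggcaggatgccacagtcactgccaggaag
Saa3 promoter, chr7:46715737-46715926, strand -: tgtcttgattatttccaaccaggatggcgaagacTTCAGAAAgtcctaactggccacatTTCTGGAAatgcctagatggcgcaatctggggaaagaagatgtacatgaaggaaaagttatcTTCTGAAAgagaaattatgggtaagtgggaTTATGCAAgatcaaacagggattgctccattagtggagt
Socs3 promoter, chr11:117969427-117969616, strand -: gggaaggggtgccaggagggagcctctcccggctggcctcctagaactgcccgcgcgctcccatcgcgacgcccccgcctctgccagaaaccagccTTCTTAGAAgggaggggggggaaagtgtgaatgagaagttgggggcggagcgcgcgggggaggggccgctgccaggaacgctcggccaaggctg

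Hp encodes haptoglobin, which captures free hemoglobin for uptake through Cd163 on macrophages. It lies on chromosome 8 from 109575128 to 109579172 (minus strand, up to 5 exons). The gene stood at 1816 CPM (1716 to 1919) in neutrophil-like and 360 CPM (340 to 380) in the 374 monocyte-derived macrophage-like cells, a ratio of 5.05 (4.66 to 5.47) that was 9.53 without library 4 and 2.64 without library 6. UMIs were present in 85.5 and 44.4% of these cells (68.7 and 19.5% after thinning). In several brain-resident classes it was near 0, with 3 UMIs in 2663 endothelial-like cells, 11 in 7941 microglia-like cells and none in pericyte-like cells. Choroid plexus-like cells had 52.7 CPM, with all 9 UMIs in 1 of 22 cells. Neuroblast-like cells had 20.7 CPM, or 5.18 CPM without the richest cell. Neutrophil-like cells were absent from library 1 and numbered 14, 22, 91, 5 and 47 in libraries 2 to 6, where their Hp was 2905, 2352, 1983, 1482 and 1079 CPM. The monocyte-derived macrophage-like cells numbered 3, 11, 121, 4 and 235 in the same libraries, and their Hp was 74.9, 1073, 757, 1511 and 131 CPM. Of the 2 libraries with over 100 such cells, library 4 was higher than library 6. The Cd163 level was 137 CPM in cluster 15 and at most 1.66 CPM in any other class of at least 50 cells. Cd163 is among the markers by which cluster 15 was assigned, so its high level there is partly set by the assignment.

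Neutrophil-like cells carried all 3 of these genes together with Socs3. Their Lcn2 in libraries 2 to 6 was 1937, 6116, 4066, 14701 and 1325 CPM, and their Lrg1 was 93.7, 1664, 1220, 635 and 1171 CPM. Library 5 had 5 such cells, so its values rest on few cells. After thinning, Lrg1 was found in 63.8% (54.8 to 72.1%) of neutrophil-like cells with Lcn2 and 48.1% (34.0 to 62.4%) of the 52 without. For Hp the shares were 74.8% (66.3 to 82.1%) and 53.8% (39.5 to 67.8%). The intervals overlapped for both genes.

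Saa3 encodes serum amyloid A3, the form of serum amyloid A that is made largely outside the liver. It has 4 exons on chromosome 7 from 46711998 to 46715700 (minus strand), close to its relatives Saa1 and Saa2, and how many reads it shares with them was not measured. Its levels in pericyte-like and monocyte-derived macrophage-like cells, 90.7 CPM (81.0 to 101) and 89.0 CPM (79.2 to 99.6), did not differ beyond counting error, with a ratio of 1.02 (0.868 to 1.2). In pericyte-like cells of libraries 1 to 6 the counts were 0, 0, 3, 102, 1 and 217 UMIs, or 0, 0, 2.09, 150, 2.67 and 392 CPM. Nearly all Saa3 of these cells lay in libraries 4 and 6, and library 6 was at least 32.5-fold higher than a library at 0, taken at 3 counts, or 12.5-fold without library 6. Those molecules came from few cells, since 19 of 890 pericyte-like cells (2.13%, or 1.46% after thinning) had any, 2 cells held 50% and 10 cells 97.2% of the UMIs. Without the richest cell of each, of 65 and 139 UMIs, libraries 4 and 6 had 54.9 and 143 CPM. Microglia-like cells had a UMI of Saa3 in 0.680%, or 0.151% after thinning, at no more than 3.49 CPM in any library.

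Of the Saa3 molecules of pericyte-like cells, 97.2% lay in 1 cluster, which held 40.5% of those of all cells, while cluster 11, the monocyte-derived macrophage-like cells, held 38.7%. Cluster 23, led by Il11 and Ccl11, had 64 cells, 29 of library 4 and 35 of library 6, and none of the others. It reached 825 CPM (737 to 922), in 10 cells or 15.6%, compared with 2.83 CPM in the 826 cells of cluster 7. With all its cells in 2 libraries, cluster and library cannot be told apart. The 6 monocyte-derived macrophage markers summed to at most 1.47 CPM in pericyte-like cells, and 5 of the 6 had no UMI there. In the monocyte-derived macrophage-like cells themselves, Saa3 was 132 CPM in library 4 and 64.5 CPM in library 6, with 15 UMIs of 1 cell in library 5 and none in libraries 2 and 3. Leaving out library 6 lowered the pericyte-like value to 35.2 CPM and the ratio of pericyte-like to monocyte-derived macrophage-like cells to 0.263, while without library 3 they were 150 CPM and 1.66.

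**Figure D3:**
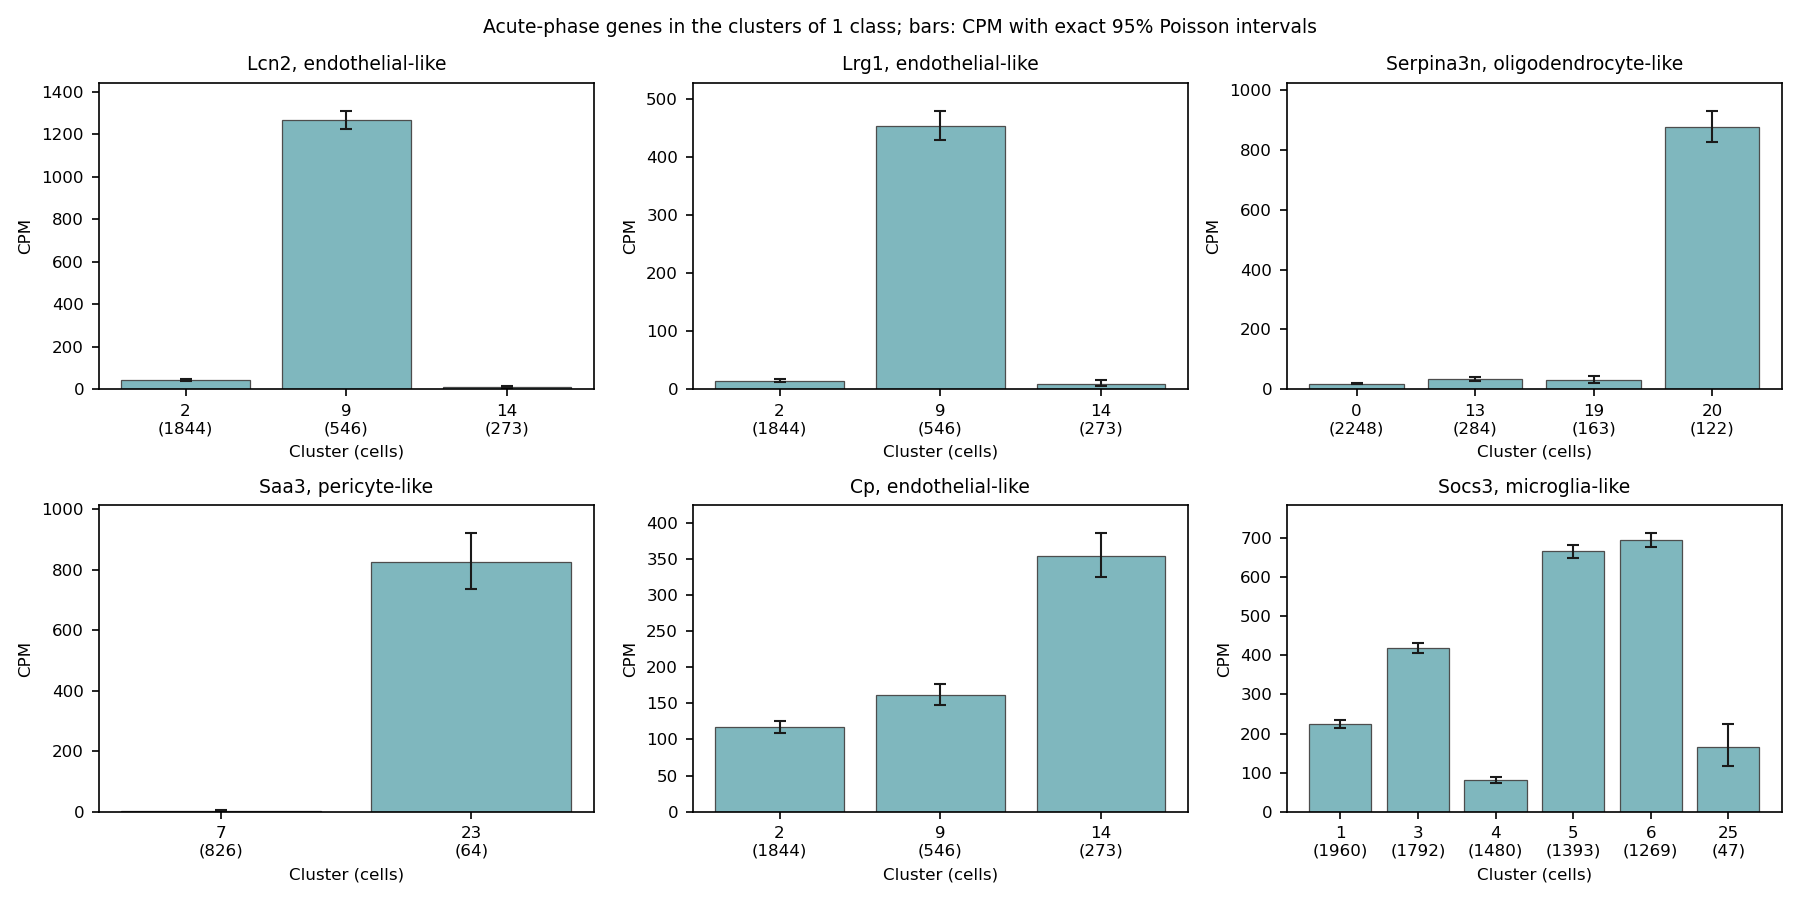
Level (CPM, bars from 0 with exact 95% Poisson intervals) of 6 of the genes in the numbered clusters of 1 cell class each, with the cells of each cluster in parentheses. Lcn2 was 1268 CPM in endothelial-like cluster 9, Saa3 825 CPM in pericyte-like cluster 23 and Serpina3n 876 CPM in oligodendrocyte-like cluster 20.

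Serpina3n encodes a secreted inhibitor of serine proteases. It lies on chromosome 12 from 104406729 to 104414329 (plus strand, up to 5 exons) among closely related Serpina3 genes, whose shared reads were not measured. Oligodendrocyte-like cells had 63.3 CPM (60.2 to 66.4) and 79.99% of its 2029 UMIs, followed by astrocyte-like cells with 29.4 CPM (25.6 to 33.6), a ratio of 2.15 (1.86 to 2.50). Choroid plexus-like cells stood higher, at 328 CPM, but were 22 cells with 37 of their 56 UMIs in 1 cell. A UMI was found in 9.80% of oligodendrocyte-like and 6.61% of astrocyte-like cells, or 3.59 and 1.98% after thinning, at medians of 8893 and 5585 UMIs. In microglia-like cells the shares were 0.164 and 0.0378%. The lead of oligodendrocyte-like cells fell under 2 times without library 3 (1.98), without library 4 (1.35) and with thinned cells (1.66).

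In oligodendrocyte-like cells of libraries 1 to 6, Serpina3n was 4.81, 2.73, 4.05, 143, 3.08 and 304 CPM. Libraries 4 and 6 stood far above the other four, and library 6 was 112 times (64.8 to 211) library 2. Without library 6 the ratio was 52.4, after thinning it was 16.5, and the level over all libraries was 39.4 CPM without library 4 and 39.1 CPM without library 6. The share of cells with a UMI was 3.90, 2.07, 2.97, 21.6, 1.82 and 27.9%. Cluster 20, led by Il33, held 84 cells of library 4 and 38 of library 6 and none of the others, and had 876 CPM (825 to 930) with a UMI in 79.5% of its cells. Its level was 692 CPM in library 4 and 1275 CPM in library 6. The main cluster of these cells, 0, had 2248 cells from all libraries, and there Serpina3n was 3.99, 2.27, 3.65, 47.4, 1.04 and 94.6 CPM, so libraries 4 and 6 were also the highest outside cluster 20.

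Astrocyte-like cells had 3.17, 8.36, 7.42, 30.1, 10.7 and 183 CPM of Serpina3n in libraries 1 to 6. Library 6 was the highest and library 4 the next, and the highest was 57.7 times (19.3 to 284) the lowest, 24.7 times without library 1 and 9.48 times without library 6. After thinning the ratio was 2.87, under the 4 times that a call requires. Astrocyte-like clusters 8 and 10 had 31.3 and 23.4 CPM. Free RNA of Serpina3n was also highest in libraries 4 and 6, at 1.96, 1.15, 6.47, 74.8, 4.47 and 220 CPM in libraries 1 to 6. In libraries 3 and 5 it was above the oligodendrocyte-like level. In libraries 4 and 6 it was above the astrocyte-like level and above that of oligodendrocyte-like cluster 0. Its part in the levels was not tested. Microglia-like cells of the same libraries had 0, 0, 0.0570, 0.577, 0 and 1.05 CPM, far under the free RNA of libraries 4 and 6.

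**Figure D4:**
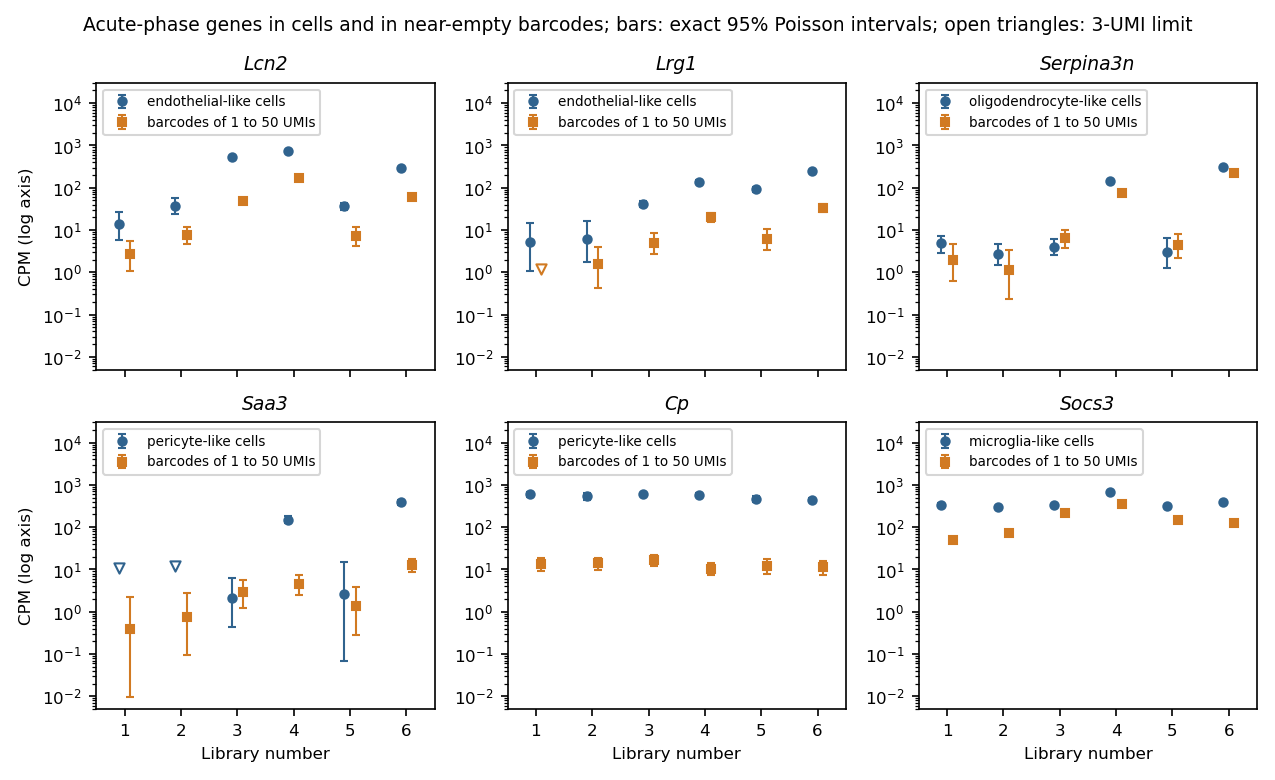
Level (CPM, log axis) of 6 of the genes by library number, in cells of 1 class (blue circles) and in free RNA, measured in barcodes of 1 to 50 UMIs (orange squares), with exact 95% Poisson intervals and an open triangle at the 3-UMI limit where none was counted. Serpina3n in free RNA was 220 CPM in library 6, where oligodendrocyte-like cells had 304 CPM.

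Cp encodes ceruloplasmin, the copper-carrying ferroxidase that loads iron onto transferrin. It has up to 20 exons on chromosome 3 from 19957054 to 20009145 (plus strand) and overlaps Hps3 on the opposite strand, and the strand setting of the counting is not given in the sources used here. The gene followed the vessel wall, with 561 CPM (536 to 586) in pericyte-like, 163 CPM (145 to 183) in smooth muscle-like and 158 CPM (150 to 165) in endothelial-like cells, the latter pair not apart beyond counting error. Pericyte-like cells led by 3.43 times (3.03 to 3.89), or 2.11 times after thinning. The 31 fibroblast-like cells, too few to enter that comparison, had 1624 CPM (1451 to 1811) with a UMI in 96.8% of cells. UMIs were found in 80.4% of pericyte-like cells (41.8% thinned, median 3436.5 UMIs), and in 0.604% of microglia-like cells (0.189% thinned). Astrocyte-like cells, in which a membrane-bound form of ceruloplasmin is known, had 17 UMIs, or 2.36 CPM, in 1164 cells.

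Unlike Saa3 in the same cells, Cp was even. Pericyte-like cells of libraries 1 to 6 had 596, 539, 615, 589, 465 and 443 CPM, and endothelial-like cells 185, 116, 222, 117, 190 and 94.6 CPM. The highest library was 1.39 times the lowest in pericyte-like and 2.35 times in endothelial-like cells. Pericyte-like clusters 7 and 23 were at 564 and 536 CPM. It took 175 pericyte-like or 166 endothelial-like cells to hold 50% of the Cp molecules of the class, in contrast to the 2 cells for Saa3. Endothelial-like cluster 14 was higher, at 354 CPM (324 to 386), than cluster 9 at 162 CPM and cluster 2 at 117 CPM, while for Lcn2 it was the lowest of the 3, at 9.45 CPM. In the smooth muscle-like cells Cp ranged from 91.0 CPM in library 2 to 894 CPM in library 1, where 7 cells were present in each.

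Socs3, the feedback inhibitor, was the most widely found of the 7 genes, in 34.1% of all cells. It has 2 exons on chromosome 11 from 117966079 to 117970047 (minus strand). Its highest classes, smooth muscle-like with 457 CPM (426 to 489), microglia-like with 437 CPM (430 to 443) and neutrophil-like cells with 398 CPM (352 to 448), lay close together, and the first exceeded the second by 1.05 times (0.974 to 1.12), within counting error. Monocyte-derived macrophage-like cells had 246 CPM, T lymphocyte-like cells 167 CPM and endothelial-like cells 90.1 CPM. The lowest of the large classes were pericyte-, astrocyte- and oligodendrocyte-like cells with 47.2, 27.3 and 20.5 CPM. Microglia-like cells held 78.7% of its 24146 UMIs, with a UMI in 53.6% of the cells and 25.1% after thinning. No class was taken to lack Socs3, so its share has no background class, and free RNA had 49.7 to 361 CPM.

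Socs3 in microglia-like cells was 335, 295, 335, 685, 318 and 393 CPM in libraries 1 to 6. Library 4 stood 2.32 times above library 2, under the 4 times required for a call, and the other five lay between 295 and 393 CPM. Among microglia-like clusters it ran from 80.7 CPM in cluster 4, which was led by hemoglobin genes, to 666 CPM in cluster 5, led by Spp1 and Ccl12, and 695 CPM in cluster 6, led by Cd83 and Ccl4. Cluster 5 held 1, 5, 33, 762, 14 and 578 cells of libraries 1 to 6, and its Socs3 was 877 CPM in library 4 and 425 CPM in library 6. In oligodendrocyte-like cells Socs3 was 3.37, 1.47, 12.2, 62.7, 6.15 and 18.8 CPM, where library 4 was 42.7 times library 2. That ratio was 18.6 without library 2, 12.8 without library 4 and 6.20 after thinning. Pericyte-like cells had 10.9, 32.2, 30.02, 109, 21.4 and 57.9 CPM, a ratio of 9.99 that was 1.81 after thinning, 5.10 without library 1 and 5.30 without library 4. Endothelial-like cells had 70.3, 89.6, 52.8, 172, 56.6 and 109 CPM. Library 4 was the highest in each of these 4 classes, as it was for free RNA, and the part of free RNA was not tested. In astrocyte-like cells library 6 was the highest, at 64.2 CPM. The 6 microglia markers summed to 204, 95.4, 760, 476, 510 and 164 CPM in oligodendrocyte-like cells of libraries 1 to 6. In pericyte-like cells they summed to 476, 165, 1891, 1580, 908 and 456 CPM, and in astrocyte-like cells to between 95.8 and 1331 CPM. Their sum in microglia-like cells was 16594 CPM over all libraries. The part of microglia RNA in the Socs3 levels of these classes was not tested. Among cells with a Socs3 UMI, 19 of 83 pericyte-like and 37 of 202 oligodendrocyte-like cells were called doublets. Of all cells in these classes, 6.29 and 3.76% were. Socs3 was 202 CPM in oligodendrocyte-like cluster 20 and 9.01 CPM in cluster 0. In pericyte-like cluster 23 it was 171 CPM, and 32.4 CPM in cluster 7. In oligodendrocyte-like cells, Socs3 was found after thinning in 8.91% of cells with Serpina3n and 0.884% of those without, which was 16.98 against 2.02% in library 4. In library 6 it was found in 0 of 43 cells with Serpina3n (interval up to 8.22%) and in 1.18% of those without.

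Between libraries, a gene was called uneven in a class when its highest library, with at least 10 CPM and 50 UMIs in the class, was at least 4 times the lowest, with intervals apart. Of the genes that passed this filter, 2 of 4 were uneven in endothelial-like cells (Lcn2 and Lrg1, against 8.05% of all genes tested), 0 of 1 in microglia-like cells (Socs3, 5.52%), 3 of 3 in oligodendrocyte-like cells (Lcn2, Serpina3n and Socs3, 4.65%), 3 of 3 in astrocyte-like cells (the same 3 symbols, 6.79%) and 2 of 3 in pericyte-like cells (Saa3 and Socs3, 10.1%). The choice of the genes used these values, so the shares are not set against each other. Some calls rest on 1 cell. Lcn2 in oligodendrocyte-like cells was 0.240, 0, 18.3, 8.76, 0 and 16.3 CPM in libraries 1 to 6, with 72, 44 and 35 UMIs in 1 cell of libraries 3, 4 and 6, and with called doublets left out its ratio of at least 13.9 was 1.04. In astrocyte-like cells Lcn2 was 0, 1.39, 68.7, 9.25, 0 and 9.40 CPM, and 174 of the 176 UMIs of library 3 were in 1 cell. Astrocyte-like Socs3, at 8.46, 4.18, 28.5, 33.3, 0 and 64.2 CPM, was at least 4.02 times the 3-count floor of library 5, which had 31 such cells, 15.4 times without library 5 and 2.09 times without library 6. Neutrophil markers summed to between 6.29 and 313 CPM by library in oligodendrocyte-like cells and between 0 and 325 CPM in astrocyte-like cells, and their part was not tested.

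The pathway around the 7 genes was counted in 6 lists of related genes. The lists were chosen with earlier results of these data known. Values of all genes are given beside theirs, and nothing is read from the difference. Of 35 other acute-phase genes, 34 were in the matrix, 16 passed the filter and 9 were led by 1 class, against 27.9% of all genes tested. The median ratio of the first to the next class was 3.45, compared with 1.42 over all genes tested. Saa1 and Saa2, the liver forms of serum amyloid A, stood at 67.9 and 52.5 CPM in pericyte-like cells and under 1 CPM in every other class of at least 50 cells. They were found in all 6 libraries, at 116, 32.2, 77.5, 69.2, 74.8 and 28.9 CPM for Saa1, and so did not share the distribution of Saa3. The protease inhibitor A2m (20.4 CPM), the pentraxin Ptx3 (19.3 CPM) and the metal-binding Mt1 (7084 CPM) and Mt2 (1325 CPM) were highest in astrocyte-like cells. Trf, which encodes the iron carrier transferrin, was highest in oligodendrocyte-like cells at 5296 CPM, and the complement gene C3 in monocyte-derived macrophage-like and neutrophil-like cells at 87.5 and 82.7 CPM.

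The ligands and receptors of the pathway were spread over several classes, some of them the same. Among the ligands, 10 of 12 genes passed the filter and 4 were led by 1 class, against 27.9% of all genes tested, with a median ratio of 1.75 against 1.42. Il11, of the IL-6 family, stood at 461 CPM in pericyte-like cells, while Il1b (8798 CPM) and Osm (405 CPM) were highest in neutrophil-like cells and Tnf (455 CPM) in monocyte-derived macrophage-like cells. Of 14 receptors, all passed and 5 were led by 1 class, close to the 27.9% of all genes, and the median ratio of 1.24 was below the 1.42 of all genes. Il6ra, which binds IL-6, was at 327 CPM in microglia-like cells, the oncostatin M receptor gene Osmr at 102 CPM in endothelial-like and 98.2 CPM in pericyte-like cells, and the shared subunit gene Il6st at 136 CPM in smooth muscle-like cells. Among the 10 signalling and transcription factors, 1 was led by 1 class, against 27.9% of all genes, and the median ratio was 1.33 against 1.42. It was Cebpb, which encodes C/EBPβ, with 3826 CPM in neutrophil-like cells. Feedback inhibitors had 3 of 7 led by 1 class, against 27.9% of all genes, with a median ratio of 2.28 against 1.42. Socs2 was highest in endothelial-like cells at 112 CPM.

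Partners and receptors of the 7 proteins had 6 of 9 genes led by 1 class, of 11 listed, against 27.9% of all genes tested. Their median ratio was 3.59, against 1.42 over all genes. Eng and Acvrl1, which encode endoglin and its partner ALK1 through which LRG1 acts, stood at 540 and 496 CPM in endothelial-like cells, the class that also held most Lrg1 molecules. Mmp9, whose protein forms a complex with lipocalin-2, was at 514 CPM in neutrophil-like cells. The lipocalin-2 receptor gene Slc22a17 was at 185 CPM in astrocyte-like and 175 CPM in oligodendrocyte-like cells. Hmox1, which encodes the enzyme that breaks down heme, reached 1859 CPM in monocyte-derived macrophage-like cells.

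Several of these genes were also uneven between libraries in the classes that held the 7 genes. In pericyte-like cells 6 of 9 other acute-phase genes tested were uneven (Saa1, Trf, Timp1, Steap4, Mt1 and Mt2), against 10.1% of all genes tested, with a median ratio of 4.33 against 2.21. There 5 of 6 ligands were uneven (Il6, Il11, Il1a, Tnf and Csf3), with a median of 10.8, and 0 of 8 receptors, with a median of 2.37. Between classes, Il1a was highest in microglia-like and Tnf in monocyte-derived macrophage-like cells. Microglia markers summed to between 165 and 1891 CPM by library in pericyte-like cells, and their part was not tested. Il11 there was 0, 0, 1.40, 598, 0 and 2235 CPM in libraries 1 to 6, and Timp1, an inhibitor of matrix proteases, was 0, 0, 1.40, 162, 2.67 and 210 CPM. Both were highest in libraries 6 and 4, as Saa3 was. Saa1 and Trf, also uneven there, were instead lowest in library 6, at 28.9 and 101 CPM. The 6 oligodendrocyte markers, also lowest in library 6, summed to 2247, 1752, 3528, 1112, 272 and 132 CPM in pericyte-like cells of libraries 1 to 6. In astrocyte-like cells 5 of 10 other acute-phase genes were uneven (C4b, A2m, Ptx3, Trf and Timp1), against 6.79% of all genes, with a median of 4.32 against 1.998. The complement gene C4b was 23.3, 26.5, 19.1, 45.3, 21.3 and 133 CPM there, Osmr was 3.17, 9.76, 5.86, 86.0, 10.6 and 105 CPM, and Stat3 was 36.0, 62.7, 58.6, 128, 53.2 and 257 CPM. Library 6 was the highest and library 4 the next for each of these 3 genes, as for Serpina3n in the same cells. Of the other acute-phase genes uneven there, A2m and Timp1 had this order too. Ptx3 was instead highest in library 4, at 47.2 CPM against 31.3 CPM in library 6, and Trf in library 1, at 203 CPM. The oligodendrocyte markers summed to 3087, 1026, 1680, 530, 229 and 1013 CPM in astrocyte-like cells of libraries 1 to 6. The part of oligodendrocyte RNA in the Trf of pericyte-like and astrocyte-like cells was not tested. In oligodendrocyte-like cells C4b was 10.8, 13, 12.1, 34.5, 11.4 and 89.9 CPM, again highest in libraries 6 and 4. In endothelial-like cells 3 of 6 other acute-phase genes were uneven, against 8.05% of all genes, with a median of 4.38 against 1.99. In microglia-like cells 1 of 5 was, Mt2, against 5.52% of all genes, and the median of 1.76 was no higher than the 1.77 of all genes.

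The genes whose levels were most alike were sought by Pearson's r of log2(CPM + 10) over 51 pairs of class and library, from 12 classes, among 9222 genes. The points share libraries and depth, and r is a description. Lcn2 and Lrg1 were each other's nearest gene with r = 0.93. The next were Sgms2 (0.87) and Pi16 (0.85) for Lcn2, and Ankrd33b (0.89) and Pi16 (0.87) for Lrg1. Hp was nearest to Arg2 (0.98), Trem3 (0.98) and Slpi (0.97). For Saa3 the nearest were Csf3 (0.84), Avpr1a (0.73) and Il11 (0.72), and for Serpina3n Btc (0.79), C4b (0.66) and Adora1 (0.62). Cp was nearest to Hrct1 (0.95), Cdc42ep5 (0.93) and Foxc1 (0.93), and Socs3 to Junb (0.93), Ppp1r15a (0.91) and Atf3 (0.90).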

How the data were processed

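The authors deposited 1 matrix of UMI counts, whole numbers per gene and barcode, for 32285 genes and 40769280 barcodes of 6 libraries, without a cell filter. Its header names Cell Ranger 5.0.1, and the submitters' processing notes name mm10. By the study's methods, the aggr step of Cell Ranger evened out sequencing depth, so reads may have been thinned before deposit. Neurons had been depleted and dead cells sorted out before capture. The tissue had been digested with warm enzymes before that, and the part of this step in the levels was not tested. A count of RNA molecules is not a level of secreted protein. No label ties a library number to a group, so the libraries stayed without a condition, and with 1 library per group no test was made and no p-value computed.

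In each library the 99th percentile of UMIs was taken over its 3000 deepest barcodes, and a barcode with at least 0.1 of it was called a cell. Cells under 200 features or over 10% mitochondrial counts were removed, as in the study, and those 2 filters alone would keep 19864 barcodes. Log-normalised counts of 2000 variable genes, without 103 genes (the 7, the listed genes and hemoglobin genes), gave 30 principal components, 20 neighbours and Leiden clusters at resolution 0.8. A cluster took the class whose markers were raised most, with at least 3 markers at 2 times the median cluster and a pseudocount of 10 CPM. Clusters led by hemoglobin at over 10% of counts, or with over 50% called doublets, stayed unnamed, a rule set after the data were seen. Doublets (329 cells, 1.90%) were called by Scrublet in scanpy 1.11.5 and kept. Thinned shares draw 1000 UMIs from each cell.

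The genes named are the 7, the 6 lists, the markers, leading genes of clusters, and for each of the 7 the 3 most alike genes. The 7 genes and the lists were chosen with earlier results of these data known. Calls across all genes were tested on simulated Poisson counts. These leave out the gathering of UMIs in few cells seen for some genes, so the simulation cannot show how the calls behave there. Ratios of 2 levels carry exact conditional intervals, and a level of 0 UMIs was taken at 3 counts. Alternatives were the cell call, doublets, resolutions 0.4 and 1.2, scaling, the mean over cells, thinning, minimum levels and each library left out. Work was done in Python 3.11.15 with leidenalg 0.10.2 and igraph 0.11.9 for clusters, scikit-learn 1.9.0 for components, scipy 1.17.1 for intervals, numpy 2.4.6, pandas 2.3.3 and, for plots, matplotlib 3.10.9.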

Additional observations from a re-analysis of the deposited data

How the results depend on the processing

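Of the values for single genes under other settings, 282 stayed within counting error of the reported value, 87 moved beyond it and 9 changed order, and of the counts of called genes 90 stayed within 1.5 times and 6 moved. The order changed only for the classes that did not differ beyond counting error. The Saa3 ratio of pericyte-like to monocyte-derived macrophage-like cells, 1.02 as reported, was 0.976 with the study's filters alone, 0.890 without mitochondrial, ribosomal protein and hemoglobin counts, 0.938 as a mean over cells and 0.684 without the richest cell of each class and library, an alternative chosen after seeing the data. With 1 library left out it ran from 0.263 (library 6) to 1.66 (library 3). The Socs3 ratio of smooth muscle-like to microglia-like cells, 1.05 as reported, was 0.890 without the richest cells, and ran from 0.886 (without library 5) to 1.38, with 0.986 without library 2 and 0.932 without library 3. The number of the 7 genes led by 1 class was 5 as reported and 4 to 6 otherwise. Serpina3n fell out when thinned or without library 3 or 4, and Saa3 was added, led by monocyte-derived macrophage-like cells, without library 6. Uneven genes between libraries stayed at 2 in endothelial-like and 0 in microglia-like cells in every setting run. With cells thinned they were 1 in oligodendrocyte-like, 0 in astrocyte-like and 1 in pericyte-like cells, and in astrocyte-like cells 1 with doublets left out, as a mean over cells, or without the richest cells. Without the richest cells, the ratio of highest to lowest library for Serpina3n in oligodendrocyte-like cells rose to 211. No paired analysis was possible because no label ties a library to a group and no result comes from a test. The cause of these changes was not tested.

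Few cells limit several values. Fibroblast-like and choroid plexus-like cells numbered 31 and 22, neutrophil-like cells of library 5 numbered 5, and Saa3 in pericyte-like cells rests on 19 cells. Counting intervals do not cover the difference between animals, which 1 library per group cannot show.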

Other observations

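The 188 cells of cluster 17, which stayed without a name and were led by Spp1 and Mmp12, came from library 4 (112 cells) and library 6 (76 cells) alone. Socs3 stood at 306 CPM there (278 to 335), and Lcn2, Serpina3n and Lrg1 had no UMI. The other unnamed cluster, 22, with 82 cells, was led by hemoglobin genes and carried endothelial markers, and 56.1% of its cells were called doublets. Its Socs3 was 274 CPM and its Cp 39.5 CPM.

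Neuroblast-like cells, which no comparison turned on, had 57 UMIs of Hp with 43 in 1 cell, 81 of Lcn2 with 19 in 1 cell and 41 of Lrg1 with 20 in 1 cell. Called doublets were 3 of the 5 such cells with Hp and 4 of the 8 with Lcn2, against 5.85% of the class. In cluster 15, the cells assigned by perivascular macrophage markers, 38 of 41 Serpina3n UMIs lay in 1 cell, while Cp was spread over 39 of 257 cells at 37.9 CPM.

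How far libraries 4 and 6 lay above the others differed between genes. Serpina3n in oligodendrocyte-like cells was 143 and 304 CPM in libraries 4 and 6 and 4.81, 2.73, 4.05 and 3.08 CPM in libraries 1, 2, 3 and 5. Saa3 in pericyte-like cells was 150 and 392 CPM in the former pair and 0, 0, 2.09 and 2.67 CPM in the others. Lrg1 in endothelial-like cells was 5.15, 6.29, 41.4, 137, 92.3 and 251 CPM in libraries 1 to 6. Socs3 in microglia-like cells was 335, 295, 335, 685, 318 and 393 CPM. Libraries 4 and 6 were also the highest for these genes, but without so wide a gap. The lower of the pair and the next library were at 137 and 92.3 CPM for Lrg1, and at 393 and 335 CPM for Socs3. Which groups these libraries belong to is not known from the sources used here.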
